A study of Drosophila melanogaster with 19 samples.

Results

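The proteasome subunit genes of Drosophila melanogaster were examined in peak lists of DNA accessible to adenine methyltransferases. Members were all genes whose symbol began with Prosalpha, Prosbeta, Rpn followed by a digit or Rpt followed by a digit. There were 48 such genes among 13946 protein-coding genes and among 17807 genes of all kinds. Of these, 32 encode the standard subunits. The other 16 have symbols ending in R or T, with at most 1 digit after that letter (Prosbeta2R2, Prosalpha4T1), and are described apart as testis-type copies.

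The proteasome is the protease that degrades proteins tagged with ubiquitin. Its barrel-shaped core has outer rings of alpha subunits, which gate the entrance, and inner rings of beta subunits, of which Prosbeta1, Prosbeta2 and Prosbeta5 carry the caspase-like, trypsin-like and chymotrypsin-like sites. A regulatory particle caps the core. In it the Rpt ATPases unfold the substrate, and the Rpn subunits form the scaffold, bind ubiquitin chains (Rpn1, Rpn10, Rpn13) or remove them (Rpn11, held by its partner Rpn8). In flies several subunits have duplicate genes used mainly in the male germline, and the standard genes are expressed in nearly every cell.

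The assay, AdMTase-seq, was done on S2-DRSC cells (S2-DSRC in the labels), an established embryonic fly line with hemocyte character. Nuclei were extracted and exposed for 20 min at 37 °C to an m6A methyltransferase, which marks adenines in DNA it can reach, and short fragments were recovered with an m6A antibody and sequenced. Of the 17 treated libraries, 8 used Hia5 (0.6, 2, 6, 20, 60 or 200 U), 3 used EcoGII and 3 used Btr192IV (each enzyme at 0.6, 2 or 6 U), 2 used EcoGI (0.6 or 2 U) and 1 used Hin1523 (2 U only). An immunoprecipitation from untreated cells and a DNA input served as controls. Only Hia5 at 2 U and at 6 U had 2 libraries each, and nothing in the labels says that these came from separate cultures. Of the hemocyte markers looked for, 5 of 10 had a peak at a gene end in some treated library, near the 43.4% of protein-coding genes other than the members. Col4a1 (a collagen IV chain) was marked in 15 treated libraries and in the untreated one, zfh1 in 13, vkg (the other collagen IV chain) in 9, srp and Pxn in 1 each, and Hml, eater, NimC1, ush and Sr-CI in 0.

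The lists held 82060 peaks in all. Treated lists ran from 772 peaks (Hia5 60 U) to 13395 (EcoGII 6 U), the untreated list held 1974 and the input 32. Relative depth, the inverse of the smallest step between the deposited heights, ran from 7.28 to 25.5 over treated libraries, was highest for EcoGII 6 U, and the untreated library (11.3) lay within that range while the input (0.673) lay below it. The gene table gives no strand. A gene-end peak is therefore a peak that touched the 500 bp on either side of the left or the right end of a gene (left being the lower coordinate), and whether that end is the promoter is not known here. All coordinates are those of dm6. Sequences and motifs were not analysed here. No test was run over the members, since nearly every group held 1 library. Intervals of a share are 95% exact binomial (Clopper-Pearson) over genes and cover counting error only.

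Between 4 and 15 of the 32 standard genes were marked at Hia5 0.6 and 2 U, by EcoGII and by Hin1523, and at most 2 of 32 in any library of Btr192IV or EcoGI. At Hia5 0.6 U, 15 of 32 standard genes (46.9%, interval 29.1 to 65.3%) had a gene-end peak, where 29.3% of the 13898 other protein-coding genes had one. The count was 7 of 32 (21.9%) in the first Hia5 2 U library, against 17.6% of other genes, and 4 of 32 (12.5%) in the second, against 17.7%. At Hia5 6 U each library had 1 standard gene (3.12%), against 5.29% and 3.86% of other genes. No standard gene had a peak at Hia5 20 U, where other genes stood at 3.41%, or at 60 U, where they stood at 0.777%. A count of 0 of 32 has an exact upper limit of 10.9%, or 9.38% if a count of 0 is taken to allow 3 genes. At 200 U there was 1 standard gene (Prosbeta6), against 3.9% of other genes. The Hia5 counts were thus high at 0.6 U, intermediate at 2 U and 0 or 1 from 6 U up.

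EcoGII marked 9 standard genes at 0.6 U (28.1%, other genes 23.1%), 12 at 2 U (37.5%, other genes 26.9%) and 8 at 6 U (25.0%, other genes 24.4%). Btr192IV marked 1 at 0.6 U (3.12%, other genes 9.41%), 2 at 2 U (6.25%, other genes 7.01%) and none at 6 U, where other genes stood at 1.9%. EcoGI marked 2 at 0.6 U (6.25%, other genes 7.91%) and 1 at 2 U (3.12%, other genes 7.02%). Hin1523 at 2 U marked 7 (21.9%, other genes 17.2%). Neither control had a gene-end peak at any of the 48 genes. Other genes stood at 1.31% in the untreated library and at 0% in the input.

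**Figure D1:**
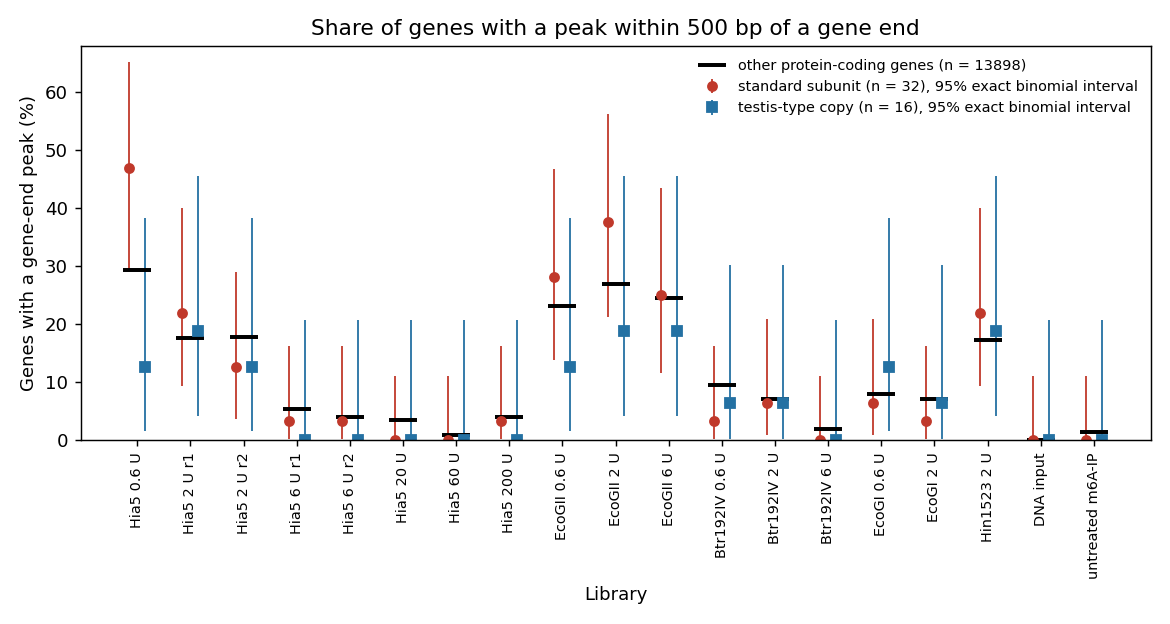
Share of genes with a gene-end peak in each of the 19 libraries (x axis), in percent (y axis), for the 32 standard subunit genes, the 16 testis-type copies and the 13898 other protein-coding genes (dashes). Vertical bars are 95% exact binomial intervals. The standard genes stand highest at Hia5 0.6 U (46.9%) and EcoGII 2 U (37.5%), and every interval takes in the share of other genes in its library.

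The standard genes stood above other genes in 6 of 17 treated libraries and below them in 11. Where the share of other genes was over 10%, the standard genes were higher in 6 of 7 libraries, with gene density not matched. The second Hia5 2 U library was the exception. Where the share of other genes was at most 10%, the standard genes were lower in 10 of 10. In these 10 libraries at most 2 standard genes were marked, and 1 gene of 32 is 3.12 points. The gaps there ran from -0.732 to -6.29 points, so several were smaller than 1 gene. All libraries scored the same 32 genes, so these counts of libraries are not independent. The widest gap was 17.5 points, at Hia5 0.6 U, and EcoGII 2 U followed with 10.6 points. The interval at EcoGII 2 U (21.1 to 56.3%) took in the 26.9% of other genes, and that at Hia5 0.6 U reached down to 29.1%, just under the 29.3% of other genes. In all 19 libraries the interval of the standard genes took in the share of other genes. The median difference over treated libraries was -0.775 points.

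The standard genes and other genes differed in gene density and length. Another gene had an end within 500 bp of an end of 31 of 32 standard genes (96.9%), of 9 of 16 testis-type copies (56.2%) and of 74.6% of other protein-coding genes. At Hia5 0.6 U, other genes with such a neighbour were marked in 33.5% of cases and those without in 17.2%. The order was the other way at Hia5 6 U, with 5.1 and 3.75% against 5.83 and 4.16%. It was also the other way at Hia5 20, 60 and 200 U and Btr192IV 6 U. Against other genes with such a neighbour, the standard genes at EcoGII 6 U were lower (25 against 26.7%). They stayed higher at Hia5 0.6 U (46.9 against 33.5%) and EcoGII 2 U (37.5 against 30.6%). They were slightly higher at EcoGII 0.6 U (28.1 against 26.1%), Hin1523 2 U (21.9 against 19%) and the first Hia5 2 U library (21.9 against 19.3%). The second Hia5 2 U library stayed lower (12.5 against 19.5%). The standard genes had a median length of 1390 bp against 2170 bp for other genes. Other genes in the length range of the members (7775 genes) stood at 28.2% at Hia5 0.6 U, near the 29.3% of all other genes. The part of these features in the result was not tested.

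Over all treated libraries, 18 of 32 standard genes (56.2%) had a gene-end peak at least once, against 43.4% of other protein-coding genes. Of the 18 genes, 13 were marked in 1 to 4 libraries, and 5 in 5 or more (15.6% of the 32, other genes 18.0%). Among the standard genes only Rpn8 reached 9 of 17 libraries (3.12%), where 7.76% of other genes did. The genes were marked at the left end only (6), at the right end only (6) or at both (6).

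**Figure D2:**
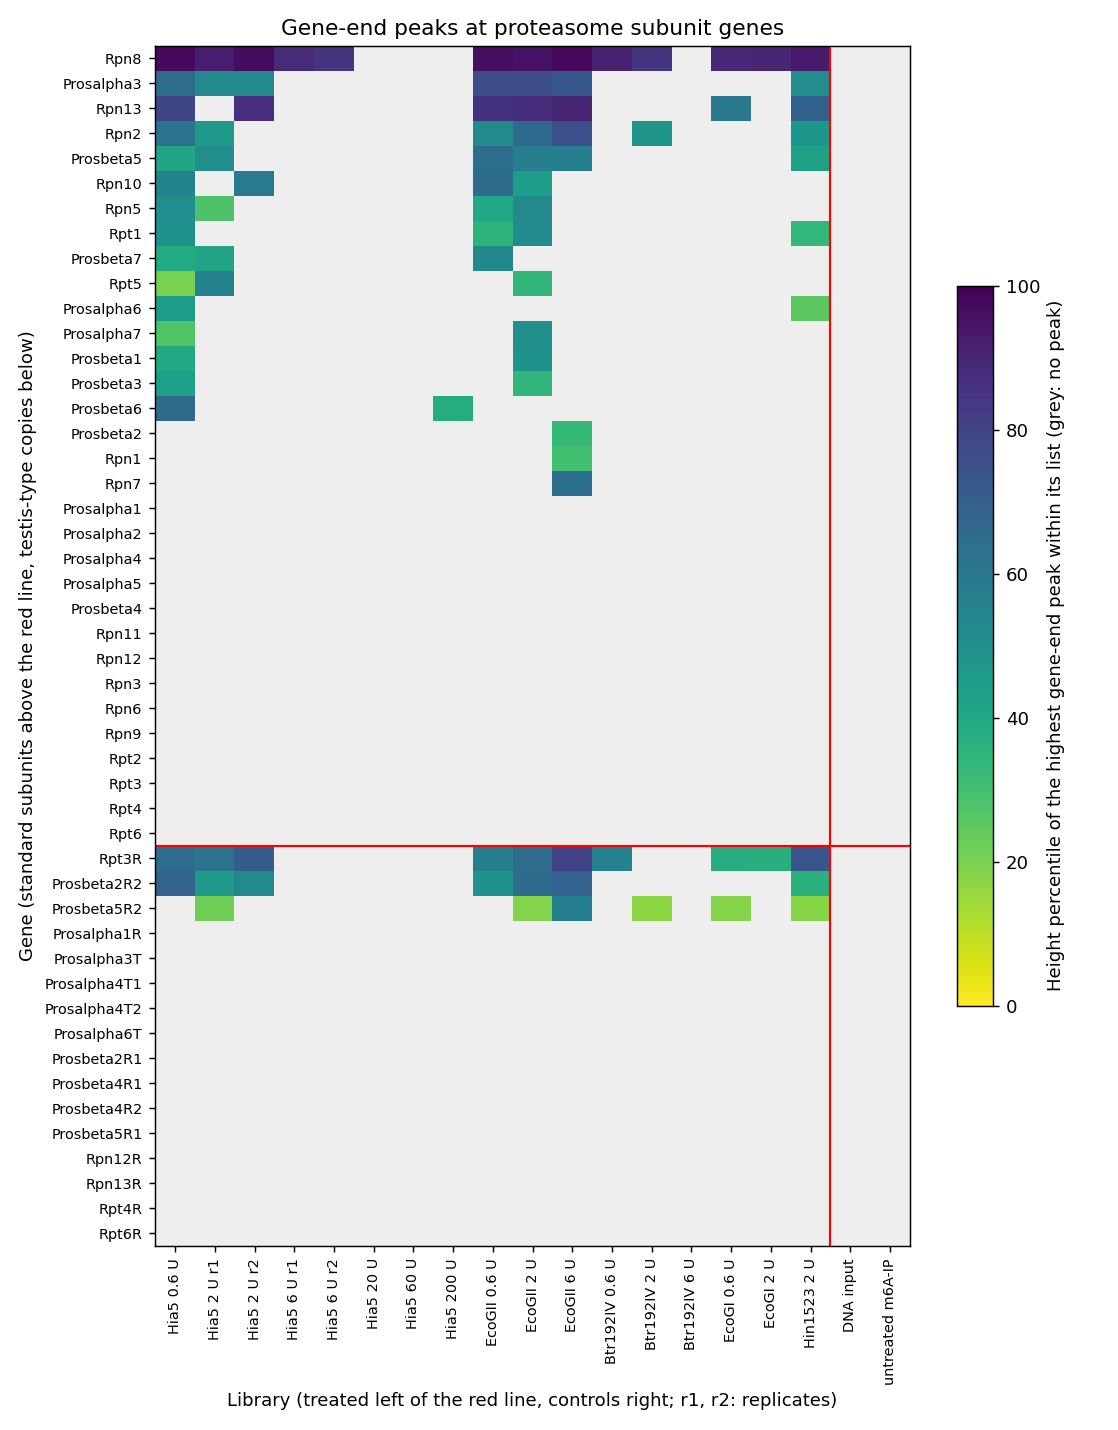
Gene-end peaks at the 48 genes (y axis, standard subunits above the red line, testis-type copies below) in 19 libraries (x axis, controls to the right). Colour is the height percentile of the highest gene-end peak within its own list and grey means no peak. Rpn8 is marked in 13 treated libraries, and both control columns are grey throughout.

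Among the alpha-ring genes of the core, 3 of 7 standard genes (interval 9.9 to 81.6%) were ever marked. This interval and those of the other classes take in the 43.4% of other protein-coding genes, and the classes were not tested against each other. Prosalpha3 was marked in 7 libraries, namely Hia5 0.6 U, both Hia5 2 U libraries, the 3 EcoGII doses and Hin1523 2 U. A peak's height percentile is its rank by height within its own list, from 0 for the lowest to 100 for the highest. For the highest Prosalpha3 peak it was 64.1 at Hia5 0.6 U, 52.3 in each Hia5 2 U library, 76.5, 76.7 and 72.5 at EcoGII 0.6, 2 and 6 U, and 51.1 for Hin1523. These values lay in the middle to upper range, highest for EcoGII. In 6 libraries a peak covered its left end (2R:20994761-20995036, gene 2R:20994900-20996118), with its middle 9.5 to 29 bp from that end, and distances to a gene end given below are from the middle of a peak too, unless stated. In 6 libraries another lay at the right end (2R:20996041-20996323), where the nearest end was that of CG10543 or of Prosalpha3 itself. In 3 libraries a further peak lay beyond the right end (2R:20996481-20996900), 450.5 to 500.5 bp from an end of CG10543. The 76.7 at EcoGII 2 U came from that further peak, and the left-end peak there stood at 60.9. The 52.3 of the first Hia5 2 U library came from a right-end peak nearest to CG10543. Of the 15 Prosalpha3 peaks, 8 lay nearer to CG10543 than to Prosalpha3. Prosalpha6 (Hia5 0.6 U and Hin1523 2 U) and Prosalpha7 (Hia5 0.6 U and EcoGII 2 U) were marked in 2 libraries each. Prosalpha1, Prosalpha2, Prosalpha4 and Prosalpha5 had no gene-end peak. Prosalpha1 and its copy Prosalpha1R lie close together on 2R and are close duplicates, so their lack of peaks is uncertain, since reads may not have been placed between them.

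In the beta ring 6 of 7 genes (interval 42.1 to 99.6%) were marked at least once. Prosbeta5, the chymotrypsin-like subunit and the target of most proteasome inhibitors, was marked in 6 libraries. Its percentiles were 41.0 at Hia5 0.6 U, 51.1 in the first Hia5 2 U library, 63.9, 57.2 and 56.9 at EcoGII 0.6, 2 and 6 U, and 42.6 for Hin1523 2 U. All 6 left-end peaks covered 2R:10819941-10819965, just outside the gene (2R:10819978-10821178), within 45 bp of an end of Prosbeta5 or of its neighbour dgo (a planar polarity gene). Prosbeta7, a structural subunit, was marked in 3 libraries (Hia5 0.6 U, the first Hia5 2 U library and EcoGII 0.6 U), each time inside the gene, 171 to 209 bp from its right end. Prosbeta1, the caspase-like subunit, and Prosbeta3 were marked at Hia5 0.6 U and EcoGII 2 U only, Prosbeta6 at Hia5 0.6 U and 200 U. Prosbeta2, the trypsin-like subunit, had a peak only at EcoGII 6 U, nearer to Reck than to itself. Prosbeta4 had none.

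Of the Rpt ATPases of the regulatory particle 2 of 6 (interval 4.33 to 77.7%) were marked. Rpt1 carried a peak over its right end (shared stretch 2R:7653927-7653992, gene 2R:7652440-7653954) at Hia5 0.6 U, EcoGII 0.6 U and 2 U and Hin1523 2 U, with percentiles of 49.8, 35.4, 51.7 and 33.7. Rpt5 carried one over its left end at Hia5 0.6 U, in the first Hia5 2 U library and at EcoGII 2 U, with percentiles of 20.1, 55.4 and 34.3. Rpt2, Rpt3, Rpt4 and Rpt6 had none in any library. Rpt3, Rpt4, Rpt6 and Prosalpha4 are the 4 standard genes on the X chromosome, and none of the 4 was marked, where 38.9% of other X-linked protein-coding genes were marked at least once.

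Among the Rpn genes 7 of 12 (interval 27.7 to 84.8%) were marked, and Rpn8 was marked in the most libraries. Rpn8, the inactive partner of the deubiquitinase Rpn11 in the lid of the regulatory particle, had peaks at its left end in 13 of 17 treated libraries and in all 5 enzymes (gene 2R:24400028-24404527). The height percentile of the highest of them was 97.3 at Hia5 0.6 U, 92.2 and 96.6 at 2 U, and 87.6 and 85.0 at 6 U. It was 95.8, 95.2 and 97.4 at EcoGII 0.6, 2 and 6 U, 90.0 and 85.1 at Btr192IV 0.6 and 2 U, 89.0 and 89.2 at EcoGI 0.6 and 2 U, and 92.9 for Hin1523 2 U. Every value was 85.0 or higher, and no peak was listed there at Hia5 20, 60 or 200 U or at Btr192IV 6 U. All 13 libraries shared the 146 bp at 2R:24399700-24399845, from 328 to 183 bp outside the gene. In 9 libraries a peak also reached into the gene. The summed width of the peaks ran from 146 bp in the first Hia5 6 U library to 646 bp in the first Hia5 2 U library. All 20 peaks lay nearer to the left end of Rpn8 than to any other gene's end. When each list was shortened to its 772 highest peaks, Rpn8 was still marked in 13 libraries and no other member was marked in any. In those lists 621 of the 13898 other protein-coding genes were marked in at least 1 treated library. Their median share per treated library was 1.3%, where 1 of 32 standard genes is 3.12%. The untreated peak nearest to Rpn8 lay 12018 bp away.

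**Figure D3:**
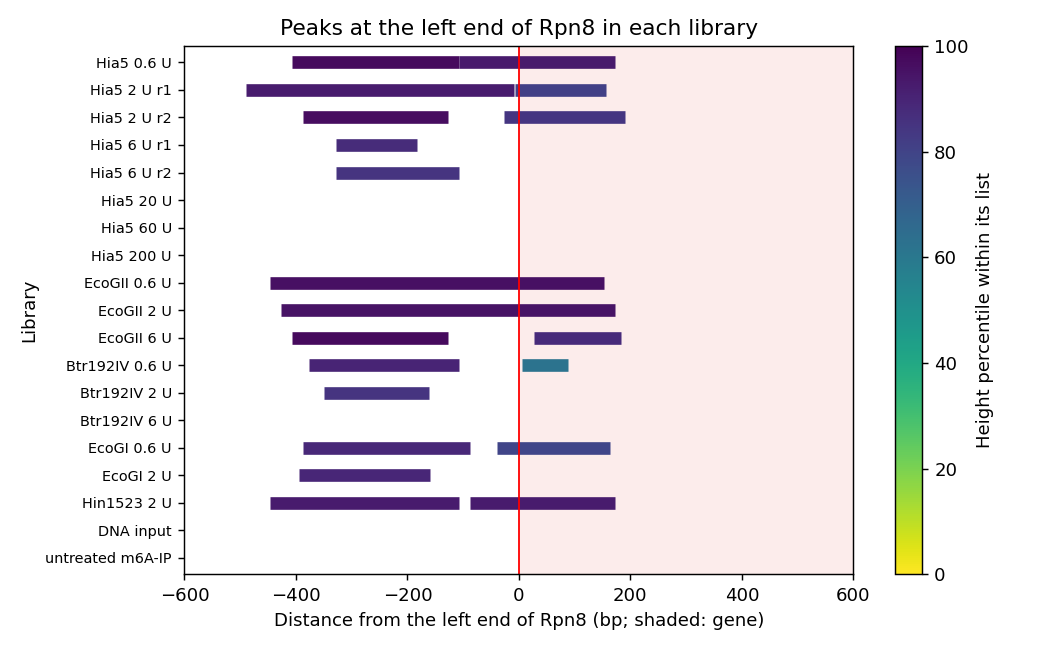
Peaks at the left end of Rpn8 in each library (y axis), by distance from that end in bp (x axis, gene shaded), coloured by height percentile within the list. The 13 marked libraries share a stretch 328 to 183 bp outside the gene, and in 9 of them a peak reaches into the gene.

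Other genes had the same pattern as Rpn8. Of 13945 other protein-coding genes, 53 (0.38%) were marked in exactly these 13 libraries (Jaccard index 1 over 17 libraries). The first 5 of them in alphabetical order were Aprt, Arpc2, CG10949, CG11151 and CG11291, and the hemocyte marker zfh1 was among the 53. In 4 libraries (Hia5 0.6 U, the first Hia5 2 U library, EcoGII 0.6 U and EcoGII 2 U) Rpn8 also held a peak inside the gene, at 2R:24402350-24402615, with percentiles of 66.1, 70.6, 67.6 and 74.4.

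Rpn13, a ubiquitin receptor that also recruits the deubiquitinase Uch-L5, was marked in 7 libraries. Its percentiles were 79.1 at Hia5 0.6 U, 86.2 in the second Hia5 2 U library, 85.2, 87.4 and 89.5 at EcoGII 0.6, 2 and 6 U, 59.9 at EcoGI 0.6 U and 69.0 for Hin1523 2 U. These lay below those of Rpn8 in every library that marked both, and the peaks (2R:13958004-13958307) lay 66.5 to 109 bp from an end of AGO1, an Argonaute of the microRNA pathway, and outside Rpn13 (2R:13958545-13960404). Rpn2, the large scaffold at the base, was marked in 7 libraries, at percentiles of 61.9 (Hia5 0.6 U), 45.8 (first Hia5 2 U library), 52.2, 65.7 and 75.6 (EcoGII 0.6, 2 and 6 U), 48.4 (Btr192IV 2 U) and 47.3 (Hin1523 2 U). Of its 8 peaks, 7 lay nearer to Slbp, which binds histone mRNA, than to Rpn2. When each peak was given only to the gene with the nearest end, Rpn13 was marked in 0 libraries and Rpn2 in 1.

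Rpn10, another ubiquitin receptor, was marked in 4 libraries at its own left end (shared stretch 3L:21537007-21537153, gene 3L:21537000-21538582). The percentiles were 54.8 at Hia5 0.6 U, 59.3 in the second Hia5 2 U library, 64.7 at EcoGII 0.6 U and 44.4 at EcoGII 2 U. Rpn5, a lid scaffold subunit, was also marked in 4 libraries, at 50.9 (Hia5 0.6 U), 28.1 (first Hia5 2 U library), 40.2 and 52.9 (EcoGII 0.6 and 2 U). Its right-end peaks were its own and its left-end peaks were nearest to Hat1, a histone acetyltransferase. Rpn1 and Rpn7 had a peak only at EcoGII 6 U, the deepest library. Rpn3, Rpn6, Rpn9, Rpn11 and Rpn12 had none.

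The 500 bp limit left out 5 standard genes that had a treated peak within 1000 bp of an end. Rpn6, a lid subunit that clamps the regulatory particle to the core, held a peak inside the gene (2R:14752129-14752400) in 7 treated libraries, with its nearer edge 510 to 586 bp from the right end. Its percentiles were 74.9 at Hia5 0.6 U, 49.9 and 48.5 at Hia5 2 U, 40.2, 77.2 and 72.9 at EcoGII 0.6, 2 and 6 U, and 33.7 for Hin1523 2 U. These are the same 7 libraries that marked Prosalpha3. They are also the 7 treated libraries in which over 10% of other protein-coding genes were marked. How many other genes shared this pattern was not counted. The next standard genes outside the limit were Rpn3 at 554 bp, Prosalpha1 at 634 bp, Prosalpha4 at 696 bp and Prosalpha5 at 842 bp, the first copy was Prosbeta5R1 at 629 bp, and the member just inside it was Rpn1 at 491 bp (nearer edge in each case). With a limit of 1000 bp, 23 of 32 standard genes were marked at least once, where 51.4% of other genes were. The untreated library also held peaks near 2 of the 32, lying 623 bp from Prosalpha1 and 852 bp from Prosalpha5. At 1000 bp these 2 genes were thus marked without enzyme too, as were 341 of the 13898 other protein-coding genes.

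Of the testis-type copies, 3 of 16 (18.8%) were marked at least once, against 43.4% of other protein-coding genes. The exact interval of 3 of 16 (4.05 to 45.6%) takes in that 43.4%. The counts were 2 at Hia5 0.6 U (12.5%), 3 and 2 at Hia5 2 U (18.8% and 12.5%), 2, 3 and 3 at EcoGII 0.6, 2 and 6 U, 1 at Btr192IV 0.6 U and 2 U, 2 and 1 at EcoGI 0.6 and 2 U, and 3 for Hin1523 2 U. They were 0 at Hia5 6 U and above and at Btr192IV 6 U, where 0 of 16 has an exact upper limit of 20.6%. The median share over treated libraries differed from that of the standard genes by 0 points, each median being taken on its own. Within single libraries the share of copies minus that of standard genes ran from -34.4 points (Hia5 0.6 U) to 6.25 points (EcoGI 0.6 U).

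The 3 marked copies differed in where the peaks lay. Rpt3R, the copy of the ATPase Rpt3, was marked in 10 libraries. Its percentiles were 64.1 at Hia5 0.6 U, 61.9 and 70.6 at 2 U, 56.7, 64.2 and 80.6 at EcoGII 0.6, 2 and 6 U, 56.2 at Btr192IV 0.6 U, 37.8 and 37.2 at EcoGI 0.6 and 2 U, and 73.4 for Hin1523 2 U. Of its 14 peaks, 9 lay nearer to Tti1, and its right-end peaks (3R:9756393-9756639) lay nearest to Rpt3R itself, with an end of Alg12 also within 500 bp. Prosbeta2R2 was marked in the 7 libraries that marked Prosalpha3, those in which over 10% of other protein-coding genes were marked. Its percentiles ran from 36.2 to 68.6, and all 9 of its peaks lay nearer to cno (a junction protein gene) or CG1116. Prosbeta5R2 was marked in 6 libraries, inside the gene, 392.5 to 574 bp from its left end. Its peaks were low, with a median percentile of 18.2 (16.9 to 56.9). The 5 alpha-ring copies (Prosalpha1R, Prosalpha3T, Prosalpha4T1, Prosalpha4T2, Prosalpha6T), Prosbeta2R1, Prosbeta4R1, Prosbeta4R2, Prosbeta5R1, Rpt4R, Rpt6R, Rpn12R and Rpn13R had no gene-end peak.

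**Figure D4:**
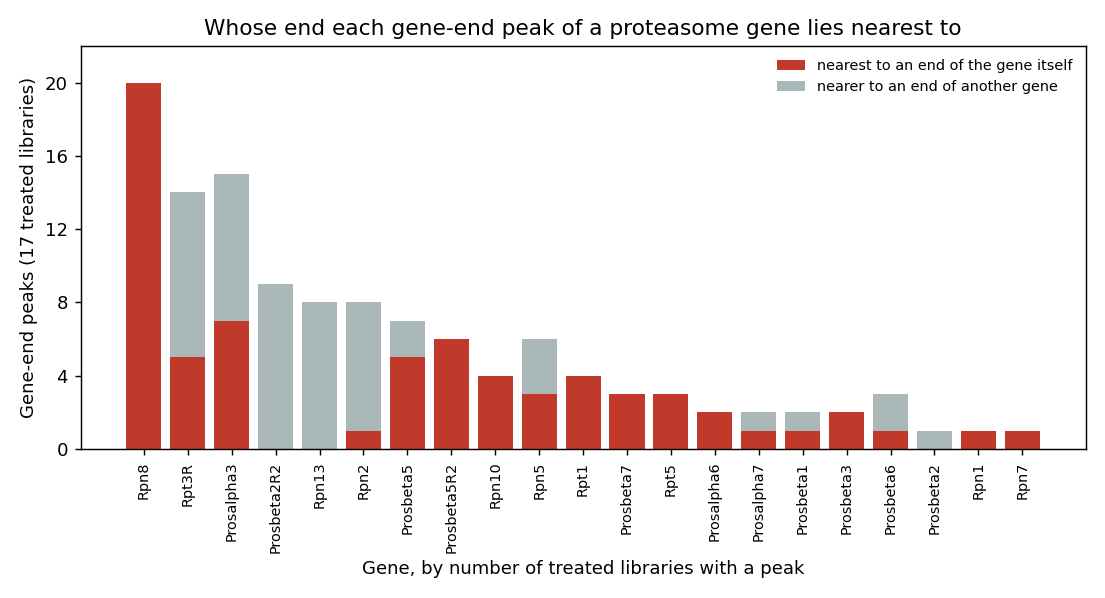
Gene-end peaks of each marked gene over the 17 treated libraries (y axis, number of peaks), split by whether the nearest gene end belongs to the gene itself or to a neighbour. All 20 peaks of Rpn8 are its own, and all 8 of Rpn13 and all 9 of Prosbeta2R2 are nearest to a neighbour.

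Over all standard genes 59 of 92 peaks (64.1%) lay nearest to an end of the gene itself, against 69.5% of the pairs of gene and peak over other protein-coding genes, and over the copies 11 of 29 (37.9%). When each peak was given only to the gene with the nearest end, 16 of 32 standard genes and 2 of 16 copies were still marked at least once, against 34.2% of other genes. The counts at Hia5 0.6 U were then 12 standard genes (37.5%) and 1 copy (6.25%), against 21.3% of other genes.

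The peaks of the standard genes had a median height percentile of 55.1 over treated libraries (20.1 to 97.4), those of the copies 50.5 (16.9 to 80.6) and those of other genes 51.7. Among the 10% highest peaks of a list were 9 of 92 standard peaks (9.78%), 0 of the 29 copy peaks, and 5.85% of the peaks at other genes. All 9 belonged to Rpn8, and of the 72 peaks of the other standard genes 0 were among them, the highest being at 89.5. The peaks had median widths of 201 bp, 144 bp and 188 bp.

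**Figure D5:**
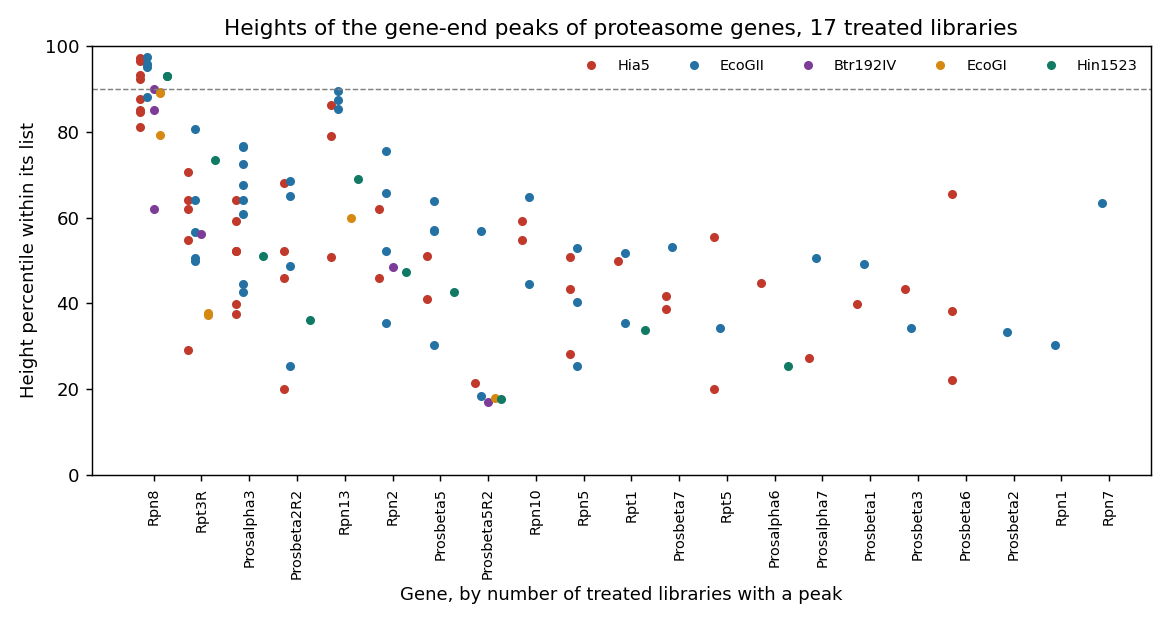
Height percentile within its list (y axis) of each gene-end peak of the marked genes (x axis), 17 treated libraries, coloured by enzyme, with a dashed line at 90. Rpn8 reaches highest (97.4), Rpn13 follows at 59.9 to 89.5 in its left-end peaks, and Prosbeta5R2 has the lowest median, 18.2.

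Replicates at Hia5 2 U shared few members. The standard genes averaged 17.2% ± 6.63 (SD, n = 2), where other genes averaged 17.6% ± 0.0763. Of the 9 standard genes marked in either library, 2 (Rpn8 and Prosalpha3) were marked in both, 28.6% of the 7 in the first and 50.0% of the 4 in the second. Among other genes 70.4% and 70.0% were shared, and 12.4% of all of them were marked in both. The copies averaged 15.6% ± 4.42 (SD, n = 2), with Rpt3R and Prosbeta2R2 in both. At Hia5 6 U the standard genes averaged 3.12% ± 0 (SD, n = 2), Rpn8 being the 1 gene in both libraries, where 2.53% of other genes were marked in both. Other genes averaged 4.57% ± 1.01 at 6 U. The groups at 2 U (21.9 and 12.5%) and at 6 U (3.12% in each) did not overlap. The difference was -14.1 points (other genes -13.1), or -18.8 points between the libraries of replicate 1 and -9.38 points between those of replicate 2. In lists of equal length the difference of the standard genes was 0, but Rpn8 was then the only one marked. An exact permutation test of 2 against 2 libraries cannot go below p = 0.333. The second libraries carry later library numbers than the first, together with the 0.6 U library and all libraries of the other enzymes. Hia5 at 20, 60 and 200 U carry the earlier ones.

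Between the ends of the Hia5 series the share of standard genes differed by -43.8 points (200 U minus 0.6 U), and that of other genes by -25.4 points. For the standard genes the Newcombe interval from Wilson limits was -60.6 to -23.4, counting error only. That interval takes both shares as independent, although the same genes were scored in each. It does not cover the spread between libraries, since each dose had 1 library. With every list shortened to its 772 highest peaks, the share of standard genes differed by -3.12 points, which is Rpn8 alone. The list at 200 U held 4054 peaks against 8080 at 0.6 U, and library number and dose cannot be told apart here. The 1 member marked at 200 U was Prosbeta6, with a left-end peak nearest to CG4098 and a right-end one of its own, at percentiles of 38.1 and 22.1. Rpn8 was not marked at 200 U.

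At matched doses of 0.6, 2 and 6 U, the standard genes stood 7.81 points higher with EcoGII than with Hia5 (mean of the 3 doses), and other protein-coding genes 7.64 points higher. The difference of the standard genes was 1.04 points with a 200 bp window and 2.08 points with each peak given to the nearest end. It was 0 in lists of equal length, where Rpn8 was the only standard gene marked. The sign was not the same at each dose, since 28.1% at 0.6 U lay below the 46.9% of Hia5, and 37.5% and 25.0% at 2 and 6 U lay above 17.2% and 3.12%. The EcoGII list was shorter than that of Hia5 at 0.6 U (6772 against 8080 peaks). It was longer at 2 U (7969 against 5680 and 6161) and at 6 U (13395 against 2856 and 2132). The part of list length was not tested. With Btr192IV the difference from Hia5 was -19.3 points, and -11.1 points for other genes, where the shares of standard genes were 3.12, 6.25 and 0% against 46.9, 17.2 and 3.12%. The lists of Btr192IV (3692, 3098 and 1425 peaks) were shorter than those of Hia5 at 0.6 and 2 U (8080, 5680 and 6161). In lists of equal length the difference was -1.04 points, again from Rpn8 alone.

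The genes marked by the different enzymes were largely shared. All 9 standard genes of EcoGII 0.6 U (60.0% of the 15), all 12 of EcoGII 2 U (80.0%) and all 7 of Hin1523 2 U (46.7%) were among the 15 of Hia5 0.6 U. Among other protein-coding genes 87.4, 82.1 and 89.2% of the marked genes in those libraries were also marked at Hia5 0.6 U. EcoGII 6 U differed, with 5 of 8 standard genes among the 15 (62.5%, other genes 73.7%). The 3 others were Rpn1, Rpn7 and Prosbeta2, each marked in no other library.

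Other genes of the ubiquitin pathway were also looked at, from a list chosen with earlier results of these data known. Their gene density and length were not set beside those of other genes, and their shares were not tested. Of 34 matched genes, 24 (70.6%) had a gene-end peak in a treated library, and 20 (58.8%) at Hia5 0.6 U, against 43.4% and 29.3% of other protein-coding genes. All 4 genes of the transcription factor group were marked, namely cnc (the Nrf family factor that drives proteasome genes in flies) in 13 libraries, its partner maf-S in 8, Pngl (a glycanase whose human and worm relatives process Nrf factors) in 7 and Keap1 (an inhibitor of cnc) in 3. All 4 genes of the p97 group, which extracts ubiquitinated proteins, were marked, TER94 (p97 itself) in 6, Ufd1 and p47 in 5 each and Npl4 in 1. Of 8 genes for ubiquitin and its activation 5 were marked, with Uba1 (the activating enzyme) in 15, eff in 8 and Ubc4 in 7 (both conjugating enzymes), and of the 4 genes that encode ubiquitin or its fusions Ubi-p63E was marked in 2 and Ubi-p5E, RpL40 and RpS27A in none. Of 6 cofactors and deubiquitinases 4 were marked, led by Uch-L5 in 7, and Usp14 and Uch had none. Of 6 ligases and their partners 5 were marked, Ube3a in 6 and Ufd4, sip3, STUB1 and park in 1 each. Only 2 of 6 assembly factors, regulators and inhibitors were marked (PSMG1, REG), and Pomp, PI31, ntc and Sem1 had none. The untreated library and the input had no gene-end peak at any of the 34.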

How the data were processed

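The authors deposited 1 peak list per library with a signal height for each peak, at a false discovery rate of 5% per the file names. Per the submitters' processing notes, BWA 0.7.12, SAMtools 1.2 and the build dm6 were used. Which caller made the lists, and whether input was subtracted, is not given in the sources used here. Signal heights, as deposited, served only to rank peaks within a list. Their smallest step was taken from the 400 lowest distinct heights of each list, with a tolerance of 0.05 of a step, within which 93.5 to 100% of them were whole multiples.

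Peaks were set against RefSeq genes of release 6 of the assembly, which carry no strand, with a window of 500 bp and an overlap of at least 1 bp (Python 3.11.15, pandas 2.3.3, scipy 1.17.1). The count was tested on simulated peaks. The members, the pathway list and the hemocyte markers were chosen with earlier results of these data known. All members were accounted for. Values per library are given for the standard gene marked in at least 9 treated libraries and for members with high or repeated peaks, and those beyond the 10 with the highest mean percentile were added after their values were seen. No test was run. Of the pathway names, 34 of 36 matched. Alternatives were windows of 200 and 1000 bp, 50% overlap, the upper part of each list, lists of equal length, removal of peaks shared with controls, the nearest end, and 1 library left out.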

Additional observations from a re-analysis of the deposited data

Results flagged for a closer look

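The number of standard subunit genes with a gene-end peak differed between 0.6 U and 2 U in opposite directions for different enzymes. With Hia5 it went from 15 of 32 genes at 0.6 U to 7 and 4 at 2 U, and with EcoGI from 2 to 1. With EcoGII it went from 9 to 12 and with Btr192IV from 1 to 2. In numbers of genes, the change with EcoGII exceeded that with Hia5 by 12.5 and the change with Btr192IV exceeded that with Hia5 by 10.5. The change with EcoGI minus that with EcoGII was -4, and minus that with Btr192IV it was -2. Each of these differences was not tested, since all but Hia5 2 U rest on 1 library per dose. The share of other protein-coding genes went from 29.3% to 17.6 and 17.7% with Hia5, from 23.1 to 26.9% with EcoGII, from 9.41 to 7.01% with Btr192IV and from 7.91 to 7.02% with EcoGI, so the step of 1 gene with Btr192IV ran against that of other genes. With a 200 bp window Btr192IV and EcoGI each marked 1 standard gene at either dose.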

How the results depend on the processing

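The median difference between standard genes and other genes, -0.775 points, changed sign with a 1000 bp window (0.0189), in the upper 50% of each list by height (0.201) and in lists of equal length (1.76). Against other genes of like length it was -0.219 and against those with a close neighbour -0.803, both chosen after seeing the data. The Hia5 6 U minus 2 U difference of -14.1 points became -23.4 with a 1000 bp window and 0 in lists of equal length, and ran from -18.8 to -9.38 with 1 library left out. With a replicate block it was -14.1, the mean of the differences within replicates. In lists of equal length 200 U minus 0.6 U was -3.12 and Btr192IV minus Hia5 -1.04 points. Rpn8 was the only standard gene marked in those lists. All values from lists of equal length thus rest on 1 gene and cannot show the part of list length. The count of standard genes marked in 9 or more of 17 libraries, 1, was 3 with a 1000 bp window, and, for a majority within each series of library numbers, 0 in the first and 2 in the second. Leaving out each of the 4 Hia5 libraries at 2 U and 6 U in turn changed no sign, except that the difference between the medians of copies and standard genes went from 0 to 1.56 or 3.12 points. That difference ran from -3.12 to 3.12 points over the other alternatives. No gene-end peak of a member overlapped a control peak, so removing such peaks could only leave the 21 gene counts as they were. Of these 21 counts, the upper 50% of each list moved 14 by over 1.5 times. The nearest-end count moved 8, the 200 bp window 7, the 1000 bp window 1 and 50% overlap 1. In lists of equal length, which hold fewer peaks by construction, 20 of 21 genes moved, Rpn8 being the exception. Libraries of lower depth may miss peaks, and a gene without a peak was not shown to be closed. Windows at 5' ends alone were not run, since strand is not used here.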
